A study of Mus musculus with 57 samples.

Results

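The comparison described here sets FOXA2 single-positive (Sox1-FOXA2+) cells against double-negative (Sox1-FOXA2-) cells, both sorted after 6 days (D6) in retinoic acid (RA) medium, across all genes. Its members are the 3 Sox1-FOXA2+ and the 3 Sox1-FOXA2- sorted libraries of D6, 6 of the 57 RNASeq libraries in the series, chosen by their sample titles. All cells came from Sox1-EGFP/FoxA2mCherry, a mouse embryonic stem cell (ESC) reporter line in which EGFP replaces 1 Sox1 allele and mCherry is joined to the 3′ end of FoxA2. The line was expanded from a single clone, so that both groups carry both reporters, and neither group has an unmodified counterpart. The cells were grown in N2B27 medium with 1 uM RA and sorted on EGFP and mCherry, with gates set on cells without reporters. Both groups were thus EGFP-negative, had the same treatment and time, and differed in the mCherry gate. The libraries are described as biological replicates, but nothing in the sources used here says whether they came from separate differentiations, so that p-values measure the spread between these libraries.

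FOXA2 is a forkhead transcription factor of endoderm, and of the node, notochord and floor plate. Besides the gut endoderm of the embryo proper, mice have extra-embryonic endoderm, which descends from primitive endoderm under GATA6, GATA4, SOX17 and SOX7. It splits into visceral endoderm, an absorptive epithelium that takes up maternal protein through cubilin and megalin and secretes serum proteins, and parietal endoderm, whose cells migrate and lay down Reichert's membrane, a thick basement membrane of laminin and type IV collagen. RA is widely used to drive ESCs towards neuroectoderm, and it can also induce extra-embryonic endoderm in culture.

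The gate was visible in the mRNA of its own gene. Foxa2 stood at 2697, 1478 and 2585 normalized counts (raw counts divided by library size factors) in Sox1-FOXA2+ replicates 1, 2 and 3, and at 142, 5.09 and 58.5 in Sox1-FOXA2- replicates 1, 2 and 3. The groups did not overlap. The cells were sorted on the reporter of this gene, so that the value is a check of the labels and no finding. In the fit across all genes Foxa2 itself did not pass (log2 difference 5.03, SE 1.54, adjusted p = 0.181). The Sox1 gate could not be checked. Sox1 lies inside the gene Sox1ot, and 0 of 13036 genes whose extent lies inside another gene have a count in this series. Values of 0 for Sox1, Sox2, Tubb3 and the like therefore say nothing about expression. Library totals ran from 26156124 to 36694379 counts in Sox1-FOXA2+ and from 36162433 to 44551257 in Sox1-FOXA2-. Between 16459 and 20171 genes were detected in Sox1-FOXA2+ libraries (mean 18209) and between 18319 and 25680 in Sox1-FOXA2- libraries (mean 21463), and the ranges overlapped for both measures. The exact permutation test (two-sided) gave p = 0.2 for each, and 3 against 3 libraries cannot go below 0.1. The 50 most abundant genes took 23.4% to 28.7% of the counts of Sox1-FOXA2+ libraries and 20.5% to 22.8% of those of Sox1-FOXA2- libraries (exact permutation p = 0.1).

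At D6, 5 of 17 endoderm transcription factors tested, 8 of 24 basement membrane genes and 8 of 20 genes of endocytosis and the lysosome were higher in Sox1-FOXA2+ cells, Gata4, Lama1, Col4a1 and Cubn among them. Of the genes tested in other lists, 4 of 15 mesenchymal, 2 of 21 neural progenitor and 6 of 15 genes of a 2-cell-like state were lower. edgeR's quasi-likelihood test called 201 of 24203 genes tested at a Benjamini-Hochberg adjusted p under 0.05, 0.83% of them. Of these, 134 were higher in Sox1-FOXA2+ (0.554% of genes tested) and 67 were lower (0.277%). The called higher genes had a median log2 difference of 3.08 (1.69 to 13.68) and the called lower genes of -3.21 (-1.77 to -13.14). That of all genes tested was -0.14. Ptk6 (13.68) was at 0 throughout Sox1-FOXA2-, and 8 called lower genes were at 0 throughout Sox1-FOXA2+. Log2 differences of such genes depend on the prior count of edgeR and are not measured sizes. Of the 201, 199 had no overlap between the 3 and 3 libraries, 0.822% of genes tested, beside 14.9% of all genes tested with no overlap whether called or not (6.12% higher and 8.77% lower). The exceptions were Tenm3 and Mir99ahg, named here after their values were seen. In bulk libraries such as these, fewer cells of a type and less RNA per cell cannot be told apart.

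**Figure D1:**
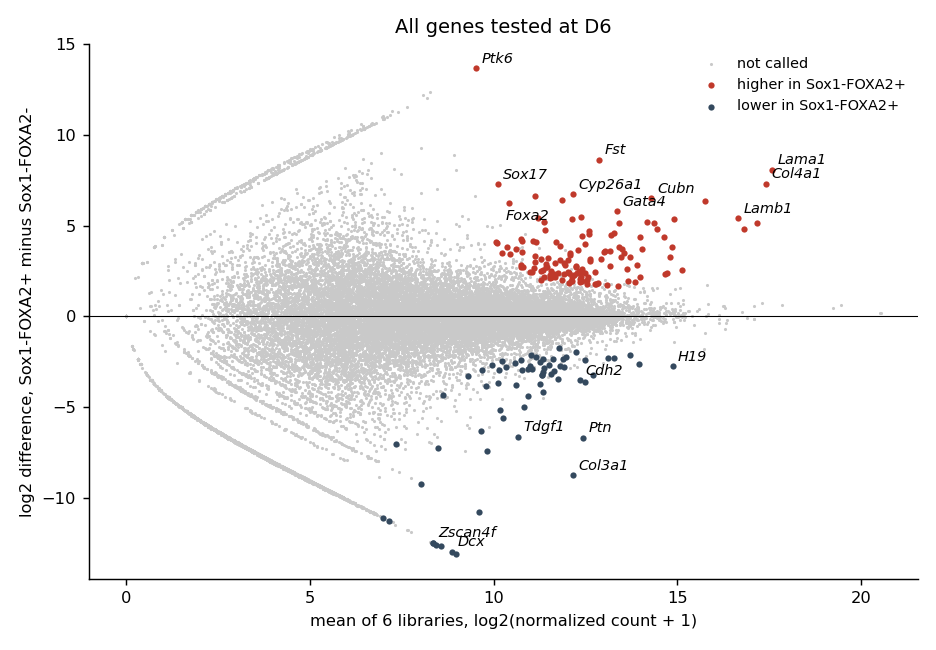
The log2 difference between Sox1-FOXA2+ and Sox1-FOXA2- at D6 (y axis) is plotted against the mean of the 6 libraries, log2(normalized count + 1) (x axis), for each of the 24203 genes tested. Red points are the 134 genes called higher and dark points the 67 called lower, and grey points were not called. Laminin and collagen IV genes lie at the upper right, among the most abundant genes, and Foxa2 is a grey point.

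Of 18 endoderm transcription factors on the list, 17 were tested, 5 rose, none fell and 12 were not called. Log2 differences were positive for 16 of the 17, with a median log2 difference of 4.71 beside -0.14 for all genes tested. Foxa2, by whose reporter the cells were sorted, is 1 of the 16 and enters this median. Gata4, a zinc finger factor of primitive endoderm and heart, stood at 24769.5, 19064 and 18266 normalized counts in the 3 Sox1-FOXA2+ libraries and at 362, 321 and 438 in the 3 Sox1-FOXA2- libraries (log2 difference 5.81, SE 0.75, adjusted p = 0.000105). Gata6, the factor that sets primitive endoderm apart from epiblast, stood at 14837, 11764 and 9394 against 519, 619 and 248 (log2 difference 4.71, SE 0.60, adjusted p = 0.000104). Every Sox1-FOXA2+ library lay far above every double-negative library for both genes. The 2 SOX factors varied more. Sox17 stood at 2443, 3515 and 629.7 against 41.8, 1.7 and 0 (log2 difference 7.28, SE 1.44, adjusted p = 0.0101), and Sox7 at 9544, 8287 and 4332 against 269, 0 and 0 (log2 difference 6.41, SE 1.40, adjusted p = 0.0223). Double-negative replicate 1 was the highest of its group for both. Robust empirical Bayes ended both calls (adjusted p = 0.0698 for Sox17 and 0.414 for Sox7), as did a fit of only the 6 libraries (0.0567 and 0.154). Gata4, Gata6, Sox7 and Sox17, and below Lamb1, Dab2 and Fst, are genes by which the study itself described these libraries, so that their direction is not independent evidence.

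Of 24 basement membrane genes tested, 8 rose, none fell and 16 were not called, and the median log2 difference was 0.46, with values below 0 in 10 of the 24. Lama1, the laminin alpha chain of the early embryo (chr17:67697259-67822647, plus strand, GRCm38), stood at 605983, 288349 and 284521 normalized counts in Sox1-FOXA2+ and at 1416, 1522 and 1462 in Sox1-FOXA2-, 268-fold higher by group means (log2 difference 8.10, SE 0.72, adjusted p = 1.52e-06). Its partners in the embryonic laminin trimer were higher too. Lamb1 stood at 297704, 143763 and 167496 against 5814, 4732 and 4021 (log2 difference 5.41, SE 0.62, adjusted p = 3.84e-05), and Lamc1 at 453022, 209512 and 202995 against 8745, 5929 and 10936 (log2 difference 5.12, SE 0.62, adjusted p = 8.13e-05). The 3 double-negative libraries lay close together for Lama1, and Sox1-FOXA2+ replicate 1 was the highest library for each of the 3 chains.

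The paired type IV collagen genes, which lie head to head on chromosome 8, rose together. Col4a1 stood at 593566, 209750 and 240518 against 2331, 2359 and 1987 (log2 difference 7.33, SE 0.84, adjusted p = 3.84e-05), and Col4a2 at 184853, 75692 and 68144 against 2177, 908 and 1115 (log2 difference 6.34, SE 0.71, adjusted p = 3.09e-05). Sparc, a secreted collagen-binding protein abundant in parietal endoderm, stood at 288429, 186205 and 192405 against 9018, 8225 and 6239 (log2 difference 4.84, SE 0.59, adjusted p = 8.13e-05). Lamb2 (2.65, adjusted p = 0.0171) and Hspg2, the basement membrane proteoglycan perlecan (2.34, adjusted p = 0.0456), rose by less. Without Sox1-FOXA2+ replicate 1 their adjusted p was 0.24 and 0.256, without Sox1-FOXA2- replicate 2 it was 0.0812 and 0.075, and the Hspg2 call was also lost without Sox1-FOXA2- replicate 3 (0.114) and the Lamb2 call without Sox1-FOXA2- replicate 1 (0.0854). The Hspg2 call was also lost with other size factors (0.0516), robust empirical Bayes (0.152) and only the 6 libraries (0.0701), and that of Lamb2 with all 57 libraries (0.0961). By exon bases, 23.7% of Col4a1 and 16.6% of Col4a2 lie inside another gene's extent, where reads were not counted. Among receptors for this matrix, 1 of 14 integrins and related genes tested rose, Sdc4, a heparan sulphate proteoglycan of focal adhesions (3.11, adjusted p = 0.00163), and none fell.

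Of 20 genes tested whose products fold, hydroxylate or export collagen, 5 rose, none fell and 15 were not called, 19 had a positive log2 difference, and the median was 2.06. Plod2, a lysyl hydroxylase of collagen, stood at 48323, 21040 and 24173 against 2979, 1400.4 and 3080.3 normalized counts (log2 difference 3.69, SE 0.54, adjusted p = 0.000449). P4ha1 and P4hb, the 2 subunits of prolyl 4-hydroxylase, stood at 33091, 18643 and 21212 against 2389.9, 1937 and 3276 (log2 difference 3.28, SE 0.50, adjusted p = 0.000726) and at 83522, 49496 and 51121 against 12311, 10269 and 9549.7 (log2 difference 2.54, SE 0.42, adjusted p = 0.00195). Serpinh1, the collagen chaperone HSP47, stood at 75882, 39958 and 40457 against 7639, 5215 and 3892 (log2 difference 3.25, SE 0.49, adjusted p = 0.000734). In all 4 genes the groups were apart, with the lowest Sox1-FOXA2+ library above the highest double-negative library. Creb3l2, a factor that controls secretory pathway genes (2.41, adjusted p = 0.0319), lost its call without Sox1-FOXA2+ replicate 1 (adjusted p = 0.146), Sox1-FOXA2- replicate 1 (0.0691) or Sox1-FOXA2- replicate 2 (0.0975).

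Of 20 genes tested of the endocytic receptor complex and lysosome, 8 rose, none fell and 12 were not called, 19 had a positive log2 difference, and the median was 2.15. Cubn, which encodes the uptake receptor cubilin, stood at 60434, 31734 and 27449.8 normalized counts in Sox1-FOXA2+ and at 426, 677 and 225 in Sox1-FOXA2- (log2 difference 6.52, SE 0.71, adjusted p = 2.26e-05). Lrp2, the co-receptor megalin, stood at 93901, 47206 and 23676 against 4687, 1661 and 6099 (log2 difference 3.81, SE 0.56, adjusted p = 0.00048). The receptor pair differed in spread, since the highest and lowest Sox1-FOXA2+ libraries of Lrp2 were further apart. Lrpap1, the chaperone of megalin, stood at 41609, 27477 and 24523 against 1234, 1346 and 1953 (log2 difference 4.39, SE 0.56, adjusted p = 0.000104). Dab2, the adaptor that links these receptors to clathrin, stood at 50715, 54889 and 39472 against 3726, 1377 and 2052 (log2 difference 4.36, SE 0.58, adjusted p = 0.000144). Neither gene overlapped between the groups. The lysosomal proteases Lgmn (3.98, adjusted p = 0.00104), Ctsl (3.71, adjusted p = 0.00201) and Ctsb (1.84, adjusted p = 0.0401) and the glucosidase Gaa (2.40, adjusted p = 0.0163) rose by less. The Ctsb call was lost without any 1 of the 6 libraries (adjusted p = 0.194, 0.0518 and 0.0641 for replicates 1, 2 and 3 of Sox1-FOXA2+ and 0.173, 0.12 and 0.157 for those of Sox1-FOXA2-) and with all 57 libraries (0.0559). The Gaa call was lost without Sox1-FOXA2+ replicate 1 (0.211), Sox1-FOXA2- replicate 2 (0.0768) or Sox1-FOXA2- replicate 3 (0.0582).

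The promoters of Lamb1 and Cubn are shown because these genes rose together by 5.41 and 6.52 on the log2 scale and differ in the letters before their start. Both are RefSeq sequences of GRCm38.p6, printed 5′ to 3′ on the strand of the gene and ending before the first exon, and capitals mark matches on either strand to 6 motifs. The GATA motif was searched as AGATAA, the forkhead motif as TGTTTAC, the TATA box as TATAAA, the CCAAT box by the letters of its name, the GC box as GGGCGG and the SOX motif as ACAAAG, and no matches shown overlap each other. The Lamb1 window, chr12:31265043-31265233, plus strand, has 191 bases, a GC content of 63.9%, 1 CCAAT match and 2 GC boxes, and the Cubn window, chr2:13491877-13492126, minus strand, has 250 bases, a GC content of 39.6% and none of the 6 motifs.
Lamb1: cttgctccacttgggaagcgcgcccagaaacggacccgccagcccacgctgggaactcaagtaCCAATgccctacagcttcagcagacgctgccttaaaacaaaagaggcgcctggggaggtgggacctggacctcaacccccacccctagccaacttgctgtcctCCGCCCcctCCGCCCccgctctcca
Cubn: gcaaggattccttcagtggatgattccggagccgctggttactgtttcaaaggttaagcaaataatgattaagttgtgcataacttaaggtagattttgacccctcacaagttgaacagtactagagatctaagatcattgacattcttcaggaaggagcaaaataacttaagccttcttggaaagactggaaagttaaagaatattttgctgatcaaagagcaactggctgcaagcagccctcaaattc
Only 96 of the 134 called higher genes and 49 of the 67 called lower genes have a promoter in the table, under 80% of each, so that a comparison of motif shares between them and other genes is void and is not given. Over all 32851 promoters of the table the shares were 32.74% for the GC box, 3.166% for forkhead, 9.988% for GATA, 12.37% for the TATA box, 33.85% for CCAAT and 16.46% for SOX. These are counts of letters in a window and say nothing about binding.

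Of 15 parietal endoderm genes tested, 6 rose, none fell and 9 were not called, all 15 had positive log2 differences, and the median was 3.59. Besides Sparc these were Fst, an activin-binding protein, at 26887, 13332 and 4316 normalized counts against 57.1, 45.8 and 12.8 (log2 difference 8.65, SE 1.41, adjusted p = 0.00149), and Srgn, the proteoglycan serglycin, at 24029.5, 18639 and 14929 against 335, 1009 and 1067 (log2 difference 4.60, SE 0.69, adjusted p = 0.000713). Pth1r, the parathyroid hormone receptor of parietal endoderm, stood at 14706, 9577 and 7034 against 709, 14.4 and 760 (log2 difference 4.46, SE 0.85, adjusted p = 0.00733). Double-negative replicate 2 was far below the others of its group for Pth1r. Tfpi, an inhibitor of coagulation, stood at 19819.5, 13247 and 17595 against 1436, 1444 and 1272 (log2 difference 3.60, SE 0.47, adjusted p = 0.000126), and Pdgfra, the PDGF receptor of primitive endoderm, at 23510.4, 15059.6 and 7373 against 1559, 694 and 1739 (log2 difference 3.59, SE 0.71, adjusted p = 0.0101). With robust empirical Bayes, Fst, Pth1r and Pdgfra were not called (adjusted p = 0.182, 0.176 and 0.118), nor was Pth1r in the fit of only the 6 libraries (0.0891) or Pdgfra in the fit of all 57 libraries (0.141).

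Of 20 secreted products of visceral endoderm, 14 were tested and none was called, and the median was 0.87, or 1.34 with genes at 0 in a group set to their limit. Summed over the list they came to 5742 to 6981 normalized counts in Sox1-FOXA2+ and to 2154 to 3104 in Sox1-FOXA2-, with 9 members at 0 throughout Sox1-FOXA2+ and 5 at 0 throughout Sox1-FOXA2-. Afp, the fetal serum protein alpha-fetoprotein, was at 0 in all 3 Sox1-FOXA2+ libraries and at 15.3, 71.2 and 188 in Sox1-FOXA2- (adjusted p = 0.495), and Ttr, the transport protein transthyretin, was at 0 in all 6 libraries. A count of 0 allows up to 3 counts in a library, and 63.8% of the Afp exon bases lie inside another gene and were not counted. None of 9 anterior visceral endoderm genes tested was called (median 1.64). By summed level, the 8 visceral endoderm markers came to 28062 to 61150 normalized counts in Sox1-FOXA2+ and to 658 to 848 in Sox1-FOXA2-, nearly all of it Cubn in Sox1-FOXA2+. Ttr and Trf were at 0 in both, and Trf lies almost wholly inside another gene. The 8 parietal endoderm markers came to 565572 to 1226970 against 13345 to 19068, with 5 called. Nearly all of this sum was Col4a1, Lamb1 and Sparc, given above as basement membrane genes. Thbd, Plat and Snai1 were not called.

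Other genes with large positive differences stood outside these groups. Ptk6, a non-receptor tyrosine kinase, was at 2364, 705 and 1328 normalized counts in Sox1-FOXA2+ and at 0 in all 3 Sox1-FOXA2- libraries, at least 596-fold higher when 3 counts per library are taken as the limit (adjusted p = 0.00149). Cyp26a1, the enzyme that degrades RA, stood at 15380.4, 7793 and 4096 against 196, 28.8 and 40.2 (log2 difference 6.75, SE 1.32, adjusted p = 0.0093). It was the only 1 of 21 RA response genes tested that rose, and Stra8, an RA-induced gene of germ cells, fell (1370.1, 1105 and 475 against 5247, 4585 and 6025, log2 difference -2.37, adjusted p = 0.0169). The median of the 21 was -1.04. The Cyp26a1 call was lost with robust empirical Bayes (adjusted p = 0.31) and the Stra8 call in the fit of all 57 libraries (0.116).

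Hkdc1, a hexokinase-related protein, stood at 6981, 3004 and 3389 against 89.1, 0 and 49.3 (log2 difference 6.63, SE 1.05, adjusted p = 0.00104). Hs3st1, a heparan sulphate sulfotransferase, stood at 12661, 6392 and 12033 against 293, 271 and 133 (log2 difference 5.45, SE 0.58, adjusted p = 1.91e-05). Serpinb6c, a serine protease inhibitor, stood at 3088, 3853 and 1132 against 50.1, 0 and 62.1 (log2 difference 6.24, SE 1.26, adjusted p = 0.0128), and its call was lost in the fit of only the 6 libraries (0.0503) and with robust empirical Bayes (0.0513). For these 3 genes no double-negative library reached the lowest Sox1-FOXA2+ library, but that was a condition for naming them and is no further finding.

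Few signalling genes were called, and no list was tested as a set. Log2 differences were negative in 18 of 24 BMP and Nodal genes and in 15 of 22 FGF and PDGF genes. Of 24 BMP and Nodal genes tested, 2 rose and none fell (median -0.78): Fst, above, and Bmper, a secreted BMP modulator, at 4088, 2898 and 3300.1 against 819.8, 495 and 568 (log2 difference 2.45, SE 0.53, adjusted p = 0.0198). Of 22 FGF and PDGF genes, 2 rose and 1 fell (median -0.58). Fgf10, a secreted growth factor, stood at 4339, 2229 and 2062 against 273, 159 and 252 (log2 difference 3.70, SE 0.65, adjusted p = 0.00385), Pdgfra is given above, and the receptor Fgfr1 stood at 579, 616 and 1231 against 4155, 2019 and 3943 (log2 difference -2.12, SE 0.44, adjusted p = 0.0162). The Bmper and Fgfr1 calls each held without 2 of the 6 libraries left out in turn. Without Sox1-FOXA2+ replicate 1, Sox1-FOXA2- replicate 1 and Sox1-FOXA2- replicate 3, the adjusted p was 0.157, 0.0622 and 0.111 for Bmper and 0.119, 0.102 and 0.0773 for Fgfr1. It was 0.0975 for Bmper without Sox1-FOXA2- replicate 2 and 0.106 for Fgfr1 without Sox1-FOXA2+ replicate 2. In the fit of all 57 libraries Bmper (0.274) and Fgf10 (0.207) were not called. Of 19 cholesterol and fatty acid synthesis genes tested, 1 rose, Insig1, a sterol-regulated brake on that pathway (2.59, adjusted p = 0.0206), and none fell (median 0.45).

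**Figure D2:**
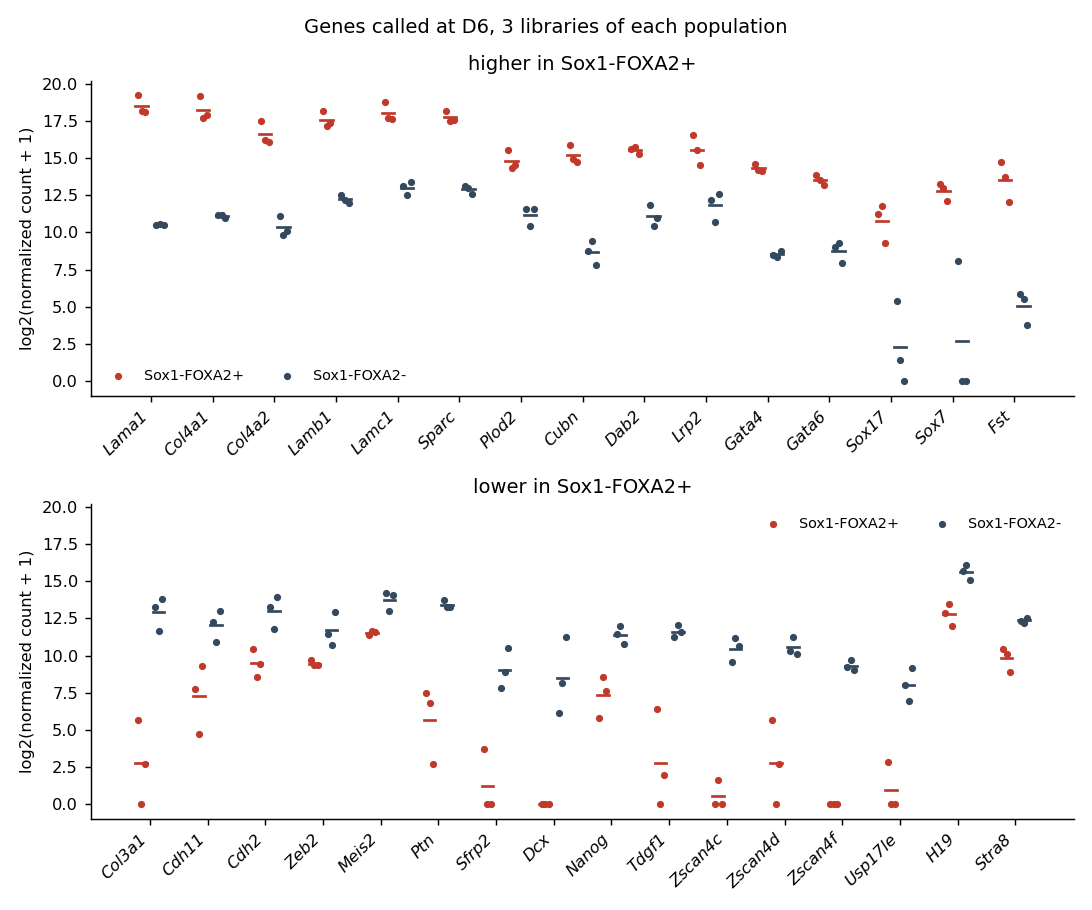
Each point is the level of a gene in 1 D6 library, log2(normalized count + 1), with Sox1-FOXA2+ in red, Sox1-FOXA2- in dark blue and a bar at the mean of 3. The upper panel holds 15 genes called higher and the lower panel 16 called lower. In each gene shown the 3 red points lie wholly above or wholly below the 3 dark points. For genes named among the 15 largest or smallest differences, this was a condition of naming them. Genes such as Zscan4f and Dcx sit at 0 in all 3 Sox1-FOXA2+ libraries.

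Of 15 mesenchymal genes tested, 4 fell, none rose and 11 were not called. Log2 differences were negative for 13 and positive for 2, with a median of -2.96 beside -0.14 for all genes. Col3a1, a fibrillar collagen, stood at 50.9, 0 and 5.72 normalized counts against 9947, 3148 and 14239.6 (log2 difference -8.78, SE 1.17, adjusted p = 0.000146), so that it moved in the opposite direction to Col4a1 and Col4a2. Cdh11 and Cdh2, a mesenchymal and a neural cadherin, stood at 219, 25.1 and 644 against 4929, 1888 and 7989 (log2 difference -4.18, SE 0.80, adjusted p = 0.00743) and at 1403, 371 and 693 against 9707, 3525 and 15913 (log2 difference -3.52, SE 0.63, adjusted p = 0.0042). Zeb2, a repressor of E-cadherin, stood at 829.6, 654 and 653 against 2863, 1698 and 7975 (log2 difference -2.53, SE 0.59, adjusted p = 0.038). Double-negative replicate 3 was the highest library for all 4 of these genes. Without it the adjusted p of Zeb2 was 0.467, and it was 0.0714, 0.103 and 0.0843 without Sox1-FOXA2+ replicates 1, 2 and 3. In the fit of only the 6 libraries, Cdh11 and Zeb2 were not called (0.0747 and 0.0526), and with robust empirical Bayes Col3a1 was not (0.055). Snai1, a repressor of E-cadherin named here after its values were seen, went the other way without being called, at 971, 480 and 2862 against 39.0, 0 and 0 (log2 difference 6.66, SE 2.40, adjusted p = 0.341). None of 23 epithelial junction and keratin genes tested was called (median 0.28).

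Of 26 neural progenitor genes 21 were tested, 2 fell, none rose, and the median was -1.94. Besides Cdh2 this was Meis2, a homeobox factor of neural and other progenitors, at 2704, 3146 and 3131 against 18647, 8062 and 17580.3 (log2 difference -2.31, SE 0.41, adjusted p = 0.00385). Meis2, Pax6 and Nes are also genes by which the study described these libraries. Pax6, a factor of neural progenitors, stood at 143, 87.3 and 45.8 against 799, 297 and 723 and Nes, the intermediate filament nestin, at 881, 819 and 467 against 4205, 4998 and 1398. Neither overlapped between groups and neither was called (adjusted p = 0.399 and 0.234). Of 16 neuronal genes tested 1 fell (median -2.43, or -1.997 with genes at 0 in a group set to their limit), Dcx, a microtubule-associated protein of young neurons, at 0, 0 and 0 against 71, 283 and 2443 (at least 263-fold lower, adjusted p = 0.0406). The Dcx value rested on double-negative replicate 3, without which the limit was 50.03-fold and the adjusted p was 0.355, and the call was also lost without Sox1-FOXA2+ replicate 1, 2 or 3 (0.0927, 0.0686 and 0.0524) and with other size factors (0.0608). Over the lists, the summed level of neural progenitor genes ran from 6893 to 11766 normalized counts in Sox1-FOXA2+, with Sox1, Sox2 and Pou3f3 uncounted. It ran from 26553 to 54107 in Sox1-FOXA2-, most of it Meis2, Cdh2 and Nes, and Cdh2 is also on the mesenchymal list. Sox3 and Fabp7, named here after their values were seen, were low in both groups and were not called. They stood at 0, 50.2 and 0 against 84.9, 8.48 and 31.1 and at 24.4, 0 and 0 against 15.3, 103 and 0.

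Of 15 naive pluripotency genes tested 1 fell and 14 were not called (median -2.44). The 1 was Nanog, a factor of the naive state, at 55, 379.8 and 197 against 2816, 4092 and 1763 (log2 difference -3.81, SE 0.88, adjusted p = 0.0331). Of 16 core and formative genes 1 fell (median -1.15), Tdgf1, which encodes the Nodal co-receptor Cripto, at 85.5, 0 and 2.86 against 2398, 4232 and 3062 (log2 difference -6.65, SE 1.35, adjusted p = 0.0128). Pou5f1, the core factor OCT4, stood at 208, 397 and 114 against 819, 490.3 and 592 and was not called (adjusted p = 0.663). The Nanog call was lost without Sox1-FOXA2+ replicate 1 (0.111), Sox1-FOXA2+ replicate 3 (0.0661) or Sox1-FOXA2- replicate 2 (0.0715), and in the fit of all 57 libraries (0.239). The Tdgf1 call was lost with robust empirical Bayes (0.259) and in the fit of only the 6 libraries (0.052). The 4 pluripotent markers Pou5f1, Nanog, Zfp42 and Esrrb summed to 1425 to 4448 normalized counts in Sox1-FOXA2+ and to 11025 to 17508 in Sox1-FOXA2-, and none of the 4 was at 0 throughout a group. Whether the double-negative libraries held pluripotent or neural cells, and what part these had in the other results, was not tested.

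The list with the lowest median was that of 2-cell-like genes, which mark a rare state of ESC cultures that resembles the 2-cell embryo. Of 15 tested, 6 fell and none rose, all 15 had negative log2 differences, and the median was -7.64, or -5.80 with genes at 0 in a group set to their limit. Zscan4c, a zinc finger protein of that state, stood at 0, 2.18 and 0 normalized counts in Sox1-FOXA2+ and at 756, 2335 and 1589 in Sox1-FOXA2- (log2 difference -10.80, SE 1.38, adjusted p = 0.000104). Zscan4f stood at 0, 0 and 0 against 588, 839 and 522, at least 183-fold lower (adjusted p = 0.000105), and Zscan4e at 0, 0 and 0 against 469.8, 1193 and 407, at least 195-fold lower (adjusted p = 0.00104). Without double-negative replicate 2 the limit of Zscan4e was 124-fold. Zscan4d (-6.31, adjusted p = 0.00453) and the deubiquitinase genes Usp17le (-7.05, adjusted p = 0.00909) and Usp17la (at least 184-fold lower, or 43.7-fold without double-negative replicate 2, adjusted p = 0.0297) fell as well. In the fit of only the 6 libraries Zscan4d, Usp17le and Usp17la were not called (0.0633, 0.267 and 0.0516), Zscan4d was not with all 57 libraries (0.0686), Usp17le was not without the legacy setting of edgeR (0.171), and Usp17la was not without Sox1-FOXA2+ replicate 1 (0.0782), Sox1-FOXA2+ replicate 2 (0.0551) or Sox1-FOXA2- replicate 2 (0.129). The listed genes summed to 139 to 412 normalized counts in Sox1-FOXA2+ and to 4376 to 13692 in Sox1-FOXA2-.

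The Zscan4 and Usp17l genes are families of near-identical copies. Reads may thus be shared or lost between members, and the value of each member is uncertain. The members are not separate observations, so that the counts of called and of negative members on this list overstate the evidence. The promoters of Zscan4c and Zscan4f show how alike 2 members are, at chr7:11005495-11005744 and chr7:11397665-11397914 of GRCm38.p6, plus strand, 250 bases each, with matches to the same 6 motifs in capitals.
Zscan4c: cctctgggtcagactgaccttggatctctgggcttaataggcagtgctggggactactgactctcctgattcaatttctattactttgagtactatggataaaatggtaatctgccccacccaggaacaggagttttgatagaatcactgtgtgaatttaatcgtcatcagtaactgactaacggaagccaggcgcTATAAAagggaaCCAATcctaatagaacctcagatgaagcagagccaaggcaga
Zscan4f: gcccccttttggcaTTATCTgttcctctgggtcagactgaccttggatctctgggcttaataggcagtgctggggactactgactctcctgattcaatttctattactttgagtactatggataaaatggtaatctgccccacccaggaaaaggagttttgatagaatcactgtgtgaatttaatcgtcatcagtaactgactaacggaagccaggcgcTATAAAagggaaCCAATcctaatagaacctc
Aligned with an offset of 23 bases, the pair were identical at 226 of 227 bases (99.56%). Both hold a TATA box and a CCAAT match near their 3′ end, and Zscan4f holds 1 GATA match.

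Several of the largest negative differences belonged to other families. Ptn, the secreted growth factor pleiotrophin, stood at 179, 109 and 5.72 normalized counts against 13320.5, 9820.3 and 9802 (log2 difference -6.70, SE 0.86, adjusted p = 0.000104). Dusp27, an atypical dual-specificity phosphatase, stood at 12.2, 0 and 20 against 1574, 1271 and 2499 (log2 difference -7.44, SE 1.01, adjusted p = 0.00018), and Sfrp2, a secreted Wnt antagonist and the only 1 of 23 Wnt and hedgehog genes tested that was called (median -1.12), at 12.2, 0 and 0 against 221, 472 and 1451 (log2 difference -7.26, SE 1.55, adjusted p = 0.0187). The Sox1-FOXA2+ libraries were at or near 0 for Sfrp2 and Dusp27. Lgi2, a secreted leucine-rich protein of neurons, Tnfsf11, the cytokine RANKL, and Mfap2, a microfibril protein, were at 0 in all 3 Sox1-FOXA2+ libraries. They stood at 323, 285 and 141, at 615, 212 and 21.9 and at 458, 137 and 1690 in Sox1-FOXA2-, at least 70.5-, 80.0- and 215-fold higher there (adjusted p = 0.0307, 0.0297 and 0.0144). The limit was 33.0-fold for Tnfsf11 without Sox1-FOXA2- replicate 1 and 84.1-fold for Mfap2 without Sox1-FOXA2- replicate 3. The Mfap2 and Sfrp2 calls were lost without Sox1-FOXA2- replicate 3 (0.123 and 0.0821), and those of Lgi2 and Tnfsf11 without Sox1-FOXA2- replicate 1 (0.0691 and 0.117), Sox1-FOXA2+ replicate 1 (0.11 and 0.101) or Sox1-FOXA2+ replicate 2 (0.0856 and 0.078). In the fit of only the 6 libraries Sfrp2, Lgi2 and Tnfsf11 were not called (0.133, 0.14 and 0.164), nor were Lgi2 and Tnfsf11 without the legacy setting of edgeR (0.189 and 0.169).

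Of 13 imprinted growth-control genes tested 1 fell, the non-coding RNA H19, at 7322, 11326 and 4144 against 52201, 70631 and 34704 (log2 difference -2.76, SE 0.51, adjusted p = 0.00576), none rose, 12 of the 13 had negative values, and the median was -2.02. Markers of other lineages that express Foxa2 or arise beside endoderm gave no calls. None was called among 9 primitive streak and mesoderm genes tested (median -4.49, or -1.63 with genes at 0 in a group set to their limit), 8 of node and notochord (-0.63, or -0.82 at that limit), 7 of definitive endoderm and gut (-0.97) and 6 of floor plate (1.74). The 4 node markers summed to 32.6 to 781 normalized counts in Sox1-FOXA2+ and 8.48 to 395 in Sox1-FOXA2-, the 4 definitive endoderm markers to 0 to 88.7 and 0 to 67.6, and the 3 floor plate markers to 6.55 to 816 and 0 to 102. Shh, named here after its values were seen, is in both the node and the floor plate sum. It stood at 26.5, 6.55 and 781 against 0, 0 and 0 and was not called (adjusted p = 0.4). Nearly all of the upper ends 781 and 816 was thus Shh in Sox1-FOXA2+ replicate 3. T, the mesoderm factor brachyury, stood at 0, 0 and 0 against 45.9, 0 and 0, and Eomes, a factor of the streak and trophoblast, at 240.2, 21.8 and 0 against 54.3, 84.8 and 3.65 (adjusted p = 0.509 and 0.984). No call was made either among 14 Hox genes tested (median -1.59, or -1.25 at the limit, with 11 further Hox genes inside other genes and uncounted), 10 trophoblast (-1.63), 10 neural crest (-0.56), 12 blood and endothelium (-0.51, or -0.80 at the limit), 11 cardiac and smooth muscle (-1.30), 15 immediate early and stress (-0.24) or 22 cell cycle genes (-0.31). In all, 54 of the 473 list genes tested were called (36 higher, 18 lower), beside 201 of all 24203 genes tested (0.83%). The lists were written with earlier results of these data known, so that a larger share among them is partly built in. Of the 201 called genes, 147 stood in no list.

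**Figure D3:**
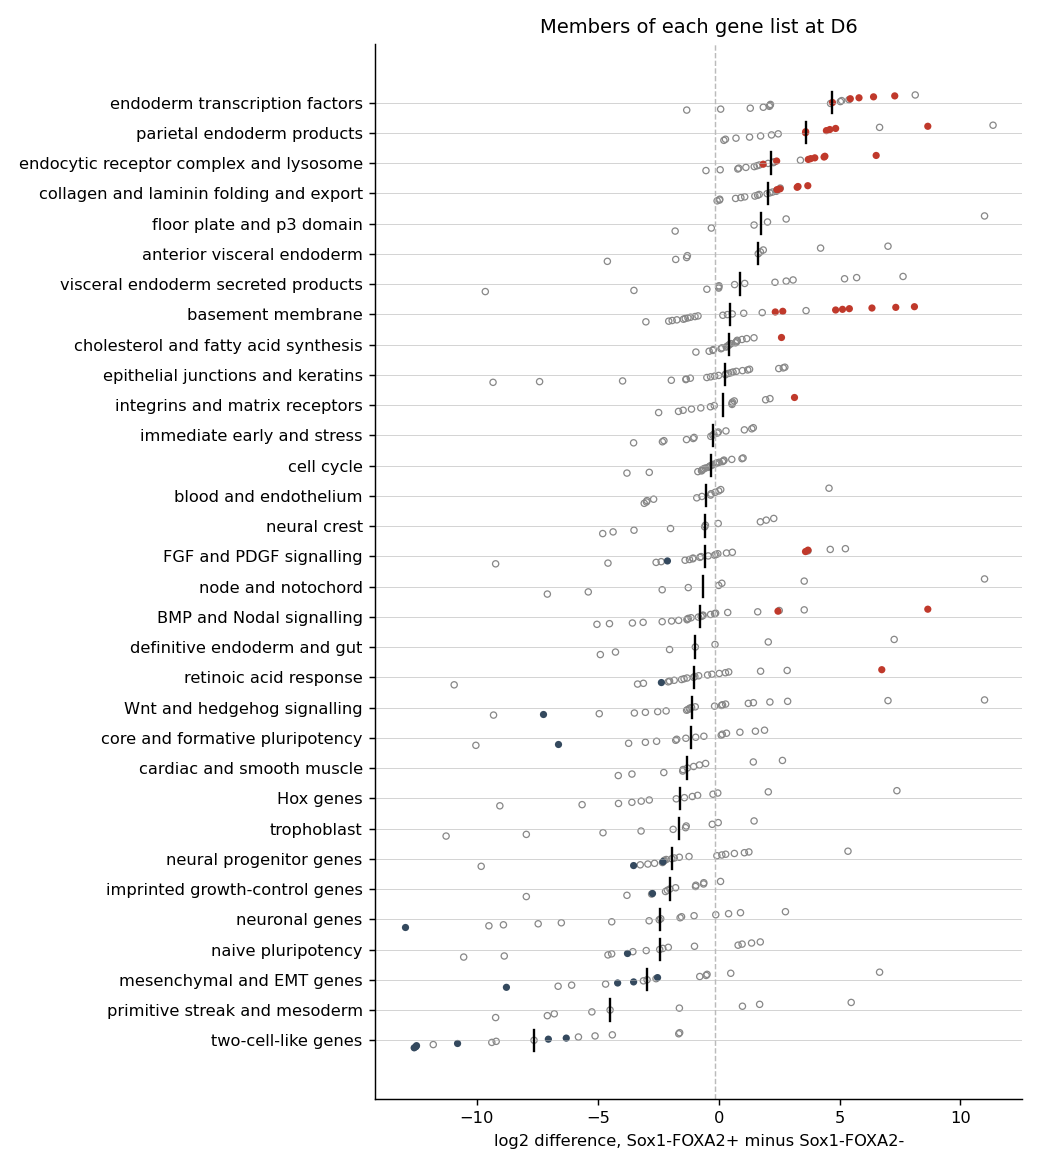
Each row is a gene list and each point a tested member, placed by its log2 difference between Sox1-FOXA2+ and Sox1-FOXA2- at D6 (x axis). Filled points were called, open points were not, black ticks are list medians and the dashed line is the median of all genes tested, -0.14. Endoderm factors (4.71) and parietal endoderm products (3.59) lie farthest to the right, and 2-cell-like genes (-7.64) farthest to the left.

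The same comparison at D4 and D2 shows when these differences were present. At D4, 61 of 22946 genes were called (0.266%), 47 higher (0.205%) and 14 lower (0.061%), and at D2 4 of 20369 (0.0196%), 2 in each direction (0.00982% each). Libraries of the same replicate number were taken as paired at D4, and with the replicate block 193 genes were called there (148 higher and 45 lower). The 61 genes and the adjusted p of single genes at D4 come from the fit without the block, which leaves this pairing out. Sox1-FOXA2- replicate 1 nonetheless correlated better at D4 with Sox1-FOXA2+ replicate 3 (0.259) than with Sox1-FOXA2+ replicate 1 (0.182). Of the 134 genes called higher at D6, all 134 had a positive log2 difference at D4 (median 2.73, 41 called without the block and 83 with it) and 109 of 133 had one at D2 (median 0.57, 0 called, or 1 with the block). Of the 67 called lower at D6, 57 had a negative log2 difference at D4 (median -1.17, 5 called without the block and 12 with it) and 35 at D2 (median -0.16, 0 called, or 2 with the block). The median of all genes was 0.05 at D4 and 0 at D2.

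Lama1 shows this course. In Sox1-FOXA2+ it stood at 2891, 15672 and 24999 normalized counts at D2 and 385741, 141849 and 288886 at D4, beside 2412, 1656 and 1793 and 1498, 918 and 1840 in Sox1-FOXA2-. Its log2 difference was 2.89 at D2 (adjusted p = 0.189), 7.57 at D4 (adjusted p = 3.38e-05) and 8.10 at D6, while the double-negative libraries stayed within a narrow range. The endoderm lists were already positive in the median at D2: 1.85 for endoderm transcription factors and 1.44 for parietal endoderm products, beside 0.45 for basement membrane, 0.09 for collagen folding and 0.24 for endocytosis. At D4 the medians were 3.64, 3.04, 1.02, 1.72 and 1.99. Those of endoderm transcription factors include Foxa2 itself. Foxa2 was at 3241, 3057 and 1646 in Sox1-FOXA2+ at D2 and at 2164, 2716 and 2267 at D4. Cubn stood at 1151, 5647 and 1795 at D2 beside 28.5, 0 and 70.2 in Sox1-FOXA2-, with a log2 difference of 6.50 that was not called (adjusted p = 0.324).

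The difference between the days was itself tested in 1 fit of the Sox1-FOXA2+ and Sox1-FOXA2- libraries of D2, D4 and D6. The D6 difference was larger or smaller than that of D2 in 97 of 23565 genes (0.412%), 56 higher (0.238%) and 41 lower (0.174%), of which 58 were also called at D6. The D6 libraries enter both tests, so that this overlap is partly built in. Against D4 no gene was called by edgeR (0 of 23565, with 1726 at an unadjusted p under 0.05), and 149 were called with the replicate block. Lama1, Lamb1, Lamc1, Col4a1 and Col4a2 were among the 97, with the D6 difference above that of D2 by 5.22 for Lama1 and 4.94 for Col4a1 on the log2 scale (adjusted p = 0.000771 and 0.000943). Lrp2 was among them too (4.00, adjusted p = 0.00453), while Lamb2 (3.34, adjusted p = 0.0746), Cubn (-0.01, adjusted p = 1) and Gata6 (1.39, adjusted p = 0.597) were not.

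For some genes the double-negative libraries also stood at other levels on other days, which was not itself tested. Cyp26a1 stood at 3671, 4581 and 1316 in Sox1-FOXA2- at D2, at 143, 341 and 2739 at D4 and at 196, 28.8 and 40.2 at D6, and at 2782, 4736 and 8951 in Sox1-FOXA2+ at D2 beside 15380.4, 7793 and 4096 at D6. The D6 difference was 5.99 above that of D2 (adjusted p = 0.0181). Ptn went the other way, from 348, 136 and 224 at D2 to 3666, 1175 and 2620.3 at D4 and 13320.5, 9820.3 and 9802 at D6 in Sox1-FOXA2-, with Sox1-FOXA2+ at 517, 430.3 and 914 at D2 and 179, 109 and 5.72 at D6 (D6 difference minus D2 difference -8.08, adjusted p = 0.000571). H19 stood at 6738, 15218 and 4132 in Sox1-FOXA2- at D2 beside 9700.4, 19348 and 8449 in Sox1-FOXA2+ (-3.29, adjusted p = 0.035). Cdh2 stood at 4889, 3781 and 3674 in Sox1-FOXA2+ and 3676, 1862 and 1630.1 in Sox1-FOXA2- at D2 (-4.30, adjusted p = 0.00256). Nanog was low in Sox1-FOXA2+ at each day. It stood there at 0.903, 0.983 and 117 at D2 beside 1448, 7024 and 4727 in Sox1-FOXA2-, and the change of its difference from D2 to D6 was not called (3.13, adjusted p = 0.477).

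**Figure D4:**
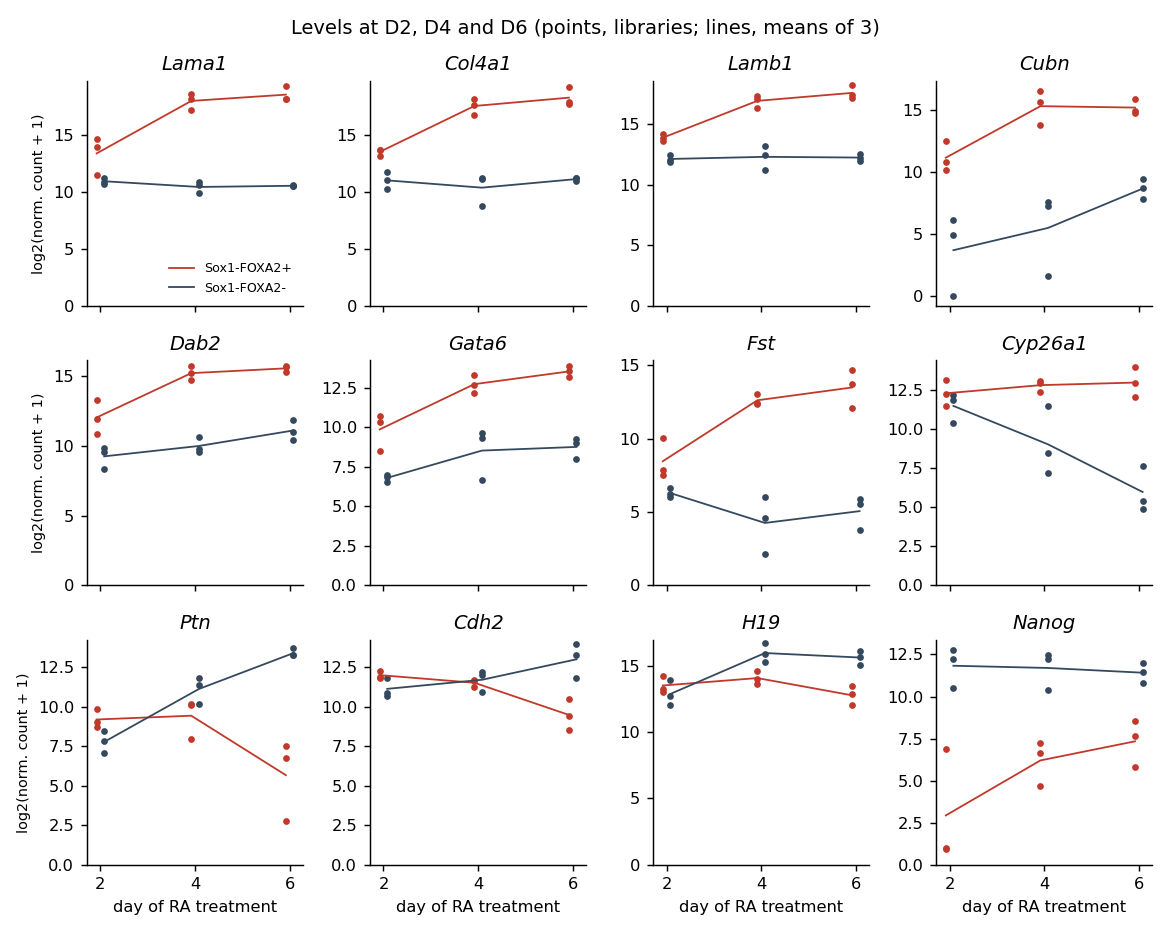
Levels of 12 genes, log2(normalized count + 1), against day of RA treatment (2, 4 and 6) in Sox1-FOXA2+ (red) and Sox1-FOXA2- (dark blue), with a point for each library and a line through the means of 3. Lama1, Col4a1 and Lamb1 climb in Sox1-FOXA2+ between D2 and D4, Cyp26a1 declines in Sox1-FOXA2-, and in Sox1-FOXA2- the means of Ptn climb from D2 to D6 and those of H19 from D2 to D4.

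The other D6 populations share libraries with this comparison, so that their values are given side by side and no overlap was tested. Sox1-FOXA2+ against Sox1+FOXA2-, the EGFP-positive cells, called 263 genes (1.09% of genes tested, 204 higher and 59 lower), and 50 of the 63 named genes called above were called there too. Sox1+FOXA2- against Sox1-FOXA2- called none by edgeR (0 of 24203, with 738 at an unadjusted p under 0.05). Lama1 stood at 2286, 1762 and 2031 in Sox1+FOXA2-, every library above the double-negative ones, with a log2 difference of 0.28 that was not called (adjusted p = 1), and Meis2 at 9468, 7108 and 13557.

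In the libraries labelled Sox1+FOXA2+, the double-positive cells, Foxa2 itself was at 0, 728 and 76.6 normalized counts, so that in replicates 1 and 3 it was no higher than in some libraries of the FOXA2-negative gates. Lama1 stood there at 23941, 49196 and 207439 and Gata4 at 1707, 6203 and 11780, each library below the Sox1-FOXA2+ and above the Sox1-FOXA2- libraries. Cubn, at 6093, 27013 and 40906, overlapped with Sox1-FOXA2+. Against Sox1-FOXA2-, 22 genes were called in these libraries (0.0909%), all higher, and 15 of the 63 named genes were among them, Lama1 (log2 difference 5.71), Gata4 (3.90) and Cubn (5.56) included. Sox1-FOXA2+ against Sox1+FOXA2+ called 11 genes (0.0454%), all lower in Sox1-FOXA2+, and 7 of the named genes were among them: Zscan4c, Zscan4e, Zscan4f, Usp17le, Ptn, Col3a1 and Dusp27. Col3a1 stood at 5971, 809.8 and 6963 in Sox1+FOXA2+, a range that overlaps its double-negative values, and at 241, 91.4 and 74 in Sox1+FOXA2-.

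**Figure D5:**
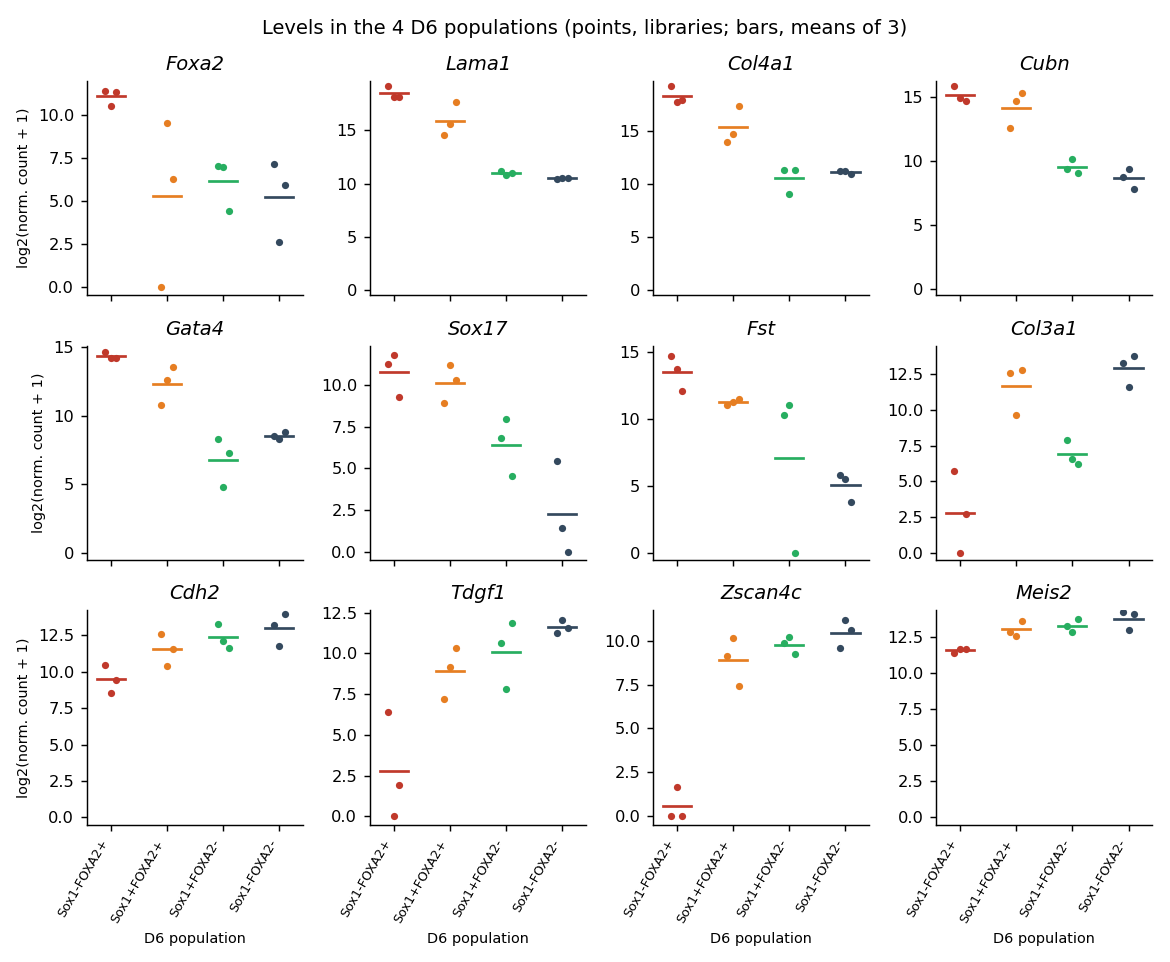
Levels of 12 genes, log2(normalized count + 1), in the 4 D6 populations, with a point for each library and a bar at the mean of 3. For Lama1, Col4a1 and Gata4 Sox1-FOXA2+ (red) is highest and Sox1+FOXA2+ (orange) lies between it and the FOXA2-negative gates, and for Zscan4c Sox1-FOXA2+ lies apart below the other 3 populations.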

How the data were processed

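The deposited values are raw counts per gene. According to the study's methods and the submitters' processing notes, the authors sorted equal numbers of cells per library, prepared them with the SMART-Seq Stranded Kit, sequenced on a NovaSeq6000, aligned reads with STAR to GENCODE M21 (GRCm38), and counted with featureCounts after SAMtools, with versions not given in the sources used here. The counts behave as if taken over whole gene extents without strand, since none of the 13036 genes lying inside another has a count, against 37716 of 42414 others. Genes partly inside another are undercounted, and overlapping or antisense genes cannot be told apart. Of the lines, 55450 are genes, and the 92 summary lines without a gene, all at 0, were dropped. No pair of libraries held identical counts.

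The 12 sorted D6 libraries were fitted together with edgeR 4.0.16 (quasi-likelihood, TMM, filterByExpr with a minimum count of 10 and total of 15, prior count 0.125) in R 4.3.3, with population as the only term. All tests were two-sided. An adjusted p (Benjamini-Hochberg over all genes tested) under 0.05 is called. D4 and D2 were fitted likewise, without the replicate block unless it is named, and differences between days in 1 fit. Normalized counts used DESeq2 1.42.0 size factors. Limits for genes at 0 in a group take 3 counts per library and cover counting error only. The SE of a log2 difference is its size over the square root of the F statistic.

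The comparison, the gene lists and the tests were chosen with earlier results of these data known. Named genes (72) are the 15 largest and 15 smallest log2 differences among genes that were called and whose libraries were apart, leaving out predicted genes; every called list member; Foxa2 and Sox1; and Gata4, Gata6, Sox17, Sox7, Afp, Ttr, Pax6, Nes, Pou5f1, Nanog, T and Eomes. Pairing by replicate number was examined over 5000 genes by correlating deviations from the group means. At D4 the same-number correlations were 0.182, 0.516 and 0.416, all over 0.1, at D6 0.0404, 0.386 and 0.299, and at D2 0.146, 0.0191 and -0.110. Only D4 was taken as paired, although Sox1-FOXA2- replicate 1 correlated better there with Sox1-FOXA2+ replicate 3 (0.259).

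On simulated D6 counts (24203 genes, 200 changed), edgeR recovered 28% of genes changed by 3 and 49% of those changed by 6 on the log2 scale, with 12.5% false calls, against 73.7% for DESeq2, and it called 0 genes when none was changed. For the D6 minus D2 difference (23565 genes) it recovered 13% and 56%. Alternatives were DESeq2's Wald test, other size factors, no filter, the replicate block, other sets of libraries and each library left out. Robust empirical Bayes and the non-legacy edgeR method were chosen after seeing the data. Promoters came from RefSeq (GRCm38.p6), which held 53 of 71 named genes. Some called genes are not reported here by name.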

Additional observations from a re-analysis of the deposited data

Results flagged for a closer look

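The difference between Sox1-FOXA2+ and Sox1-FOXA2- changed between D2 and D6 for 97 genes (edgeR, adjusted p under 0.05). This was a test of the change itself, in the fit of D2, D4 and D6. Among 71 named genes tested 26 did so, 19 with a D6 difference above that of D2 and 7 below, beside 0.412% of all 23565 genes tested. The named genes were mostly picked by their D6 difference, which is part of this contrast, so that a larger share among them is built in. Values are the D6 minus the D2 log2 difference.

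Among matrix genes the difference rose for Lama1 by 5.22, Col4a1 by 4.94, Col4a2 by 4.08, Lamb1 by 3.67, Lamc1 by 4.39 and Sparc by 3.21. The collagen-folding genes Plod2 (3.68), P4ha1 (3.20) and P4hb (2.17) and the matrix receptor Sdc4 (3.07) rose with them, as did Hs3st1 (5.09). In the endocytic and lysosomal group Lrpap1 rose by 4.34, Lrp2 by 4.00, Lgmn by 3.34, Ctsl by 3.06 and Gaa by 2.79. Fst rose by 6.07, Cyp26a1 by 5.99 and Insig1 by 2.29.

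The differences that moved down were those of Lgi2 (-10.95), Ptn (-8.08), Dusp27 (-5.27), Cdh11 (-5.05), Cdh2 (-4.30), Zeb2 (-3.52) and H19 (-3.29). Lgi2 is at 0 in Sox1-FOXA2+ at D6, so that its value depends on the prior count. Groups of 3 libraries were too small for a search for single outlying samples.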

How the results depend on the processing

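No called named gene changed direction under any alternative, and of the uncalled ones Eomes did (-2.07 without Sox1-FOXA2+ replicate 1). Of the 63 named genes called at D6, DESeq2's Wald test, no filter and the replicate block kept 63, other size factors 61, edgeR without its legacy setting 60, all 57 libraries 55, robust empirical Bayes 53 and only the 6 libraries 49. Leaving out 1 library kept 50 to 59. The D6 count of 201 became 1377 with DESeq2 (490 higher, 887 lower), 509 without the filter (242 and 267), 432 with the replicate block (247 and 185, 200 of the 201 kept), 381 with all 57 libraries (212 and 169, 176 kept) and 472 without the legacy setting. It was 215 with other size factors, 219 with only the 6 libraries (161 kept), 242 with robust empirical Bayes, and 147 to 294 without 1 library. List members called, 54, became 116, 99 and 88 with DESeq2, no filter and no legacy setting, and 48 to 58 without 1 library. The D4 count of 61 became 873 with DESeq2, 262 without the filter, 193 with the block and 37 to 70 without 1 library, 37 being without Sox1-FOXA2+ replicate 1. The D2 count of 4 became 446, 204 and 20 under the same 3 settings and 1 to 9 without 1 library: of the double-negative libraries, leaving out replicate 2 gave 1 and replicate 1 gave 9, and of the Sox1-FOXA2+ libraries leaving out replicate 1 or 3 gave 8. The 97 genes of the D6 minus D2 difference became 57 with all 57 libraries, 414 without the filter, 580 with the block and 75 to 165 without 1 library, 165 being without Sox1-FOXA2+ replicate 3. The 0 genes of the D6 minus D4 difference became 1, 95 and 149 under those settings, and 0 to 26 without 1 library: of the Sox1-FOXA2+ libraries, leaving out replicate 1 gave 26 and replicate 3 gave 3, and leaving out double-negative replicate 2 gave 3. Why these counts moved was not tested. At D6 and D4 the same-number libraries were not all alike. Sox1-FOXA2- replicate 1 correlated best with Sox1-FOXA2+ replicate 3 (0.106 at D6 and 0.259 at D4), so that the block rests on a shared number there. DESeq2 size factors moved the median of all genes by 0.0065, and no list median changed sign. Foxa2 passed the threshold with DESeq2, without the filter, without the legacy setting and with only the 6 libraries. The smallest differences called at D6 were 1.69 and -1.77.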

Other observations

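Of the 201 genes called at D6, 147 stood in no gene list, and those named here were chosen after their values were seen. Epas1, the hypoxia-inducible factor HIF-2alpha, stood at 58494, 70970 and 50309 normalized counts in Sox1-FOXA2+ and at 1669, 1182 and 1608 in Sox1-FOXA2- (log2 difference 5.35, SE 0.48, edgeR adjusted p = 1.52e-06). F3, the tissue factor that starts coagulation and that Tfpi inhibits, stood at 11258, 4977 and 10238 against 279.8, 115 and 250.3 (log2 difference 5.35, SE 0.67, adjusted p = 0.000104). Both the initiator and its inhibitor were thus higher in the same libraries. Lifr, the receptor of leukaemia inhibitory factor, stood at 61408, 29589.8 and 31773 against 1886, 791 and 835 (5.16, adjusted p = 0.000104), and Fabp3, a fatty acid binding protein, at 38826, 27355 and 43017 against 905, 626 and 1386 (5.21, adjusted p = 0.000268). Gpx3, a secreted glutathione peroxidase (3.82), Podxl, a sialomucin of apical membranes (3.69), Pdpn, a mucin-like membrane protein (4.18), Runx1, a factor of blood formation (2.75), and Tead4, a factor of trophectoderm (2.26), were higher as well (adjusted p = 0.000431, 0.000315, 0.0208, 0.00674 and 0.00579).

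Among the lower genes outside the lists were the ephrin receptors Epha7 (-4.42) and Epha3 (-3.06), the repellent Slit2 and the adhesion protein Alcam (-2.85), with adjusted p of 0.00822, 0.00599, 0.026 and 0.0163 in that order. Ddr2, a receptor for fibrillar collagen, stood at 47.8, 83 and 8.59 normalized counts in Sox1-FOXA2+ and at 3019, 1405 and 2729.5 in Sox1-FOXA2- (-5.60, adjusted p = 0.000397), and so moved in the direction of Col3a1. Igfbp3 and Igfbp2, which bind insulin-like growth factors, fell by 4.99 and 2.59 on the log2 scale (adjusted p = 0.023 and 0.00576).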
